A study of Mus musculus with 6 samples.

Results

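Genes that load peptides onto MHC class I were followed in type 1 conventional dendritic cells (cDC1) with and without anti-CD40 stimulation. The group holds B2m, Tap1, Tap2, Tapbp, Tapbpl, Calr and Erap1, chosen by gene symbol and not by any measured value. All 7 genes had a probe set of their own among the 12780 genes of the deposited table. The anti-CD40 stimulated group had 3 samples and the unstimulated group had 3 samples, each on 1 Affymetrix array. Both groups were migratory cDC1 from skin-draining lymph nodes of wild-type C57BL/6 mice, sorted as XCR1+ CD40+ cells that were MHC IIhigh and CD11cint and lacked B220, CD326 and Sirpa. Stimulated and unstimulated cells were thus both selected for CD40 on the surface. The age of the mice, the number pooled per sample, and the dose, duration and place of the stimulation are not stated in the labels.

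MHC class I molecules show peptides from inside the cell to CD8 T cells. Peptides made by the proteasome are pumped into the endoplasmic reticulum by the TAP1-TAP2 transporter, trimmed there by the aminopeptidase ERAP1 and fitted into the heavy chain, which is held open by the chaperones tapasin and calreticulin and completed by the light chain beta-2 microglobulin. cDC1 are known for using this route also for antigens taken up from other cells, which is called cross-presentation. CD40 is the receptor through which CD4 T cells that carry CD40 ligand license dendritic cells to prime CD8 T cells. The series set stimulated and unstimulated cDC1 side by side, and for the loading genes the question is whether their RNA differed with that signal.

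The promoters of 4 members are shown as background to the description of which members varied together across the arrays. Whether their letters bear on that was not tested. Tap1 and Tapbp had nearly the same pattern, B2m had a different one, and Calr belongs with the endoplasmic reticulum chaperones. The letters are from RefSeq (GRCm38.p6), which had a promoter entry for 5 of the 7 members and none for Tap2 and Tapbpl. Each line gives the 250 bases before the gene's start, 5′ to 3′. For Tap1 the 225 bases between the start of Psmb9 and the start of Tap1 are given, since these neighbours are read in opposite directions from this stretch. Psmb9 encodes an immunoproteasome subunit. Capitals mark matches to the motifs named after the sequences.
Tap1, chr17:34187331-34187555 (plus strand): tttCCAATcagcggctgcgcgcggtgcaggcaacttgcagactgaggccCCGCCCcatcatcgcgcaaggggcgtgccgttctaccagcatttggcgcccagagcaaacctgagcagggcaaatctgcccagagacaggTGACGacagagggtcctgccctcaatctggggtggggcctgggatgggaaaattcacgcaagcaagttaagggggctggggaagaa
Tapbp, chr17:33919228-33919477 (plus strand): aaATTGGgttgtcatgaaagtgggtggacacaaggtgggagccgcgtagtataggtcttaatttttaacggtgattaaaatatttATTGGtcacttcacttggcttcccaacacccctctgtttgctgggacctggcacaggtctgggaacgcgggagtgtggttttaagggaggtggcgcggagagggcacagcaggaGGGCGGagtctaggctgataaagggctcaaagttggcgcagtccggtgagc
B2m, chr2:122147437-122147686 (plus strand): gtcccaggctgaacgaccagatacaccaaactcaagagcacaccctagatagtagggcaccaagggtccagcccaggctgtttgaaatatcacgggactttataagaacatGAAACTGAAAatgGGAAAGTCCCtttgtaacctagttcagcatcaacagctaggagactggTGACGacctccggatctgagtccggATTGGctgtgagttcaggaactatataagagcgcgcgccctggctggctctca
Calr, chr8:84846932-84847181 (minus strand): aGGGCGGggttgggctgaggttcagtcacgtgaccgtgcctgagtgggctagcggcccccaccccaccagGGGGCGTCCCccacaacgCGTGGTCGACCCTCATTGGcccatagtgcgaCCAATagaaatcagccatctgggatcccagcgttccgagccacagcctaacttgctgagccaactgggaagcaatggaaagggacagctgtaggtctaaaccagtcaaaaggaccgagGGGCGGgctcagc

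Matches were searched on both strands of the 250 bases before 32851 gene starts. The interferon-stimulated response element, spelled GAAANNGAAA, matched at -139 to -130 of B2m (counted from the start, with -1 the last base before it), and 2.98% of all promoters held such a match. The kappaB motif of NF-kB factors matched at -126 to -117 of B2m and at -180 to -171 of Calr, against 7.25% of all promoters. The letters TGACG, the core of the X2 box of MHC promoters and of cyclic AMP response elements, matched at -86 to -82 of Tap1 and at -78 to -74 of B2m, against 17.77% of all promoters. The CCAAT box matched in all 4 sequences and in 33.85% of all promoters, and the GC box GGGCGG matched in Tap1, Tapbp and Calr and in 32.74% of all promoters. The endoplasmic reticulum stress element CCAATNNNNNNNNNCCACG matched at -162 to -144 of Calr, where it contains 1 of the CCAAT boxes, and in 37 promoters or 0.11% of all. The promoter of Erap1 held none of these motifs in its 250 bases. Matches describe letters, not bound sites.

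Markers were checked against the labelled cell type. Batf3, a transcription factor needed for cDC1, had mean log2 intensities of 9.76 in stimulated and 9.35 in unstimulated cells, and Ccr7, the receptor that leads dendritic cells to lymph nodes, 12.66 and 12.51. Of 10 cDC1 markers 9 were in the table, with 5 differences positive and 4 negative. The sort marker Xcr1 was dim, at 4.68 and 4.44, as were Wdfy4, Itgae and Naaa. Among the cDC1 markers, groups did not overlap for Cd24a (10.78 in stimulated and 11.26 in unstimulated cells) and Cadm1 (7.79 and 7.43). The same held for Epcam, which encodes the excluded CD326 (5.31 and 4.74), for Sirpa, also excluded in the sort (4.83 and 4.67), and for Cd80, Cd86 and Cd3e, all higher in stimulated cells. Their limma adjusted p was 0.99998, except for Cd86 (0.208), and 7.14% of all genes had groups that did not overlap. Cd40 had log2 intensities of 10.08, 9.05 and 9.70 in stimulated cells, against 8.91, 8.13 and 8.77 in unstimulated cells, and did not pass the test over all genes (limma adjusted p 0.99998). Of the 5 B cell and 6 T cell markers looked for, 2 and 4 were in the table, with means no higher than 5.78 in either group (the median of all genes was 5.71). Single arrays were higher, all of them replicate 3. There Cd5 reached 6.22 in stimulated and 5.89 in unstimulated cells, Cd3g 6.12 and 5.97, and Cd3d 5.97 in stimulated cells. Of the plasmacytoid dendritic cell markers, Bst2 (8.34 in stimulated and 8.41 in unstimulated cells) and Tcf4 (6.91 and 6.83) were brighter, while Siglech (4.68 and 4.72) and Ly6d (4.99 and 4.94) were dim. Whether other cells were present was not tested. Arrays differed in spread: the interquartile range of their log2 intensities was 1.87 to 2.40 in stimulated and 1.86 to 2.27 in unstimulated samples, with replicate 1 the widest and replicate 2 the narrowest in both groups. The samples are labelled as biological replicates, but separate mice are not mentioned. The p-values therefore measure only how much these samples varied, which may be partly technical.

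None of the 7 loading genes differed between stimulated and unstimulated cDC1 by more than the spread between arrays. In the limma fit across all genes, 0 of the 7 passed a Benjamini-Hochberg adjusted p of 0.05, against 0.0156% of all genes (2 of 12780, the costimulatory ligands Tnfsf9 and Cd70, with log2 differences of 3.19 and 2.66). At an unadjusted p under 0.05 the count was also 0 of 7, against 3.49% of all genes. All 7 members had a limma adjusted p of 0.99998. Stimulated and unstimulated values overlapped for every member, while 7.14% of all genes had groups that did not overlap. The log2 differences, stimulated minus unstimulated, were positive for 5 members and negative for 2, with a median of 0.22. Over all genes 51.0% were positive and the median was 0.005. In RNA from a whole sorted population, fewer cells that express a gene and less RNA per cell cannot be told apart.

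**Figure D1:**
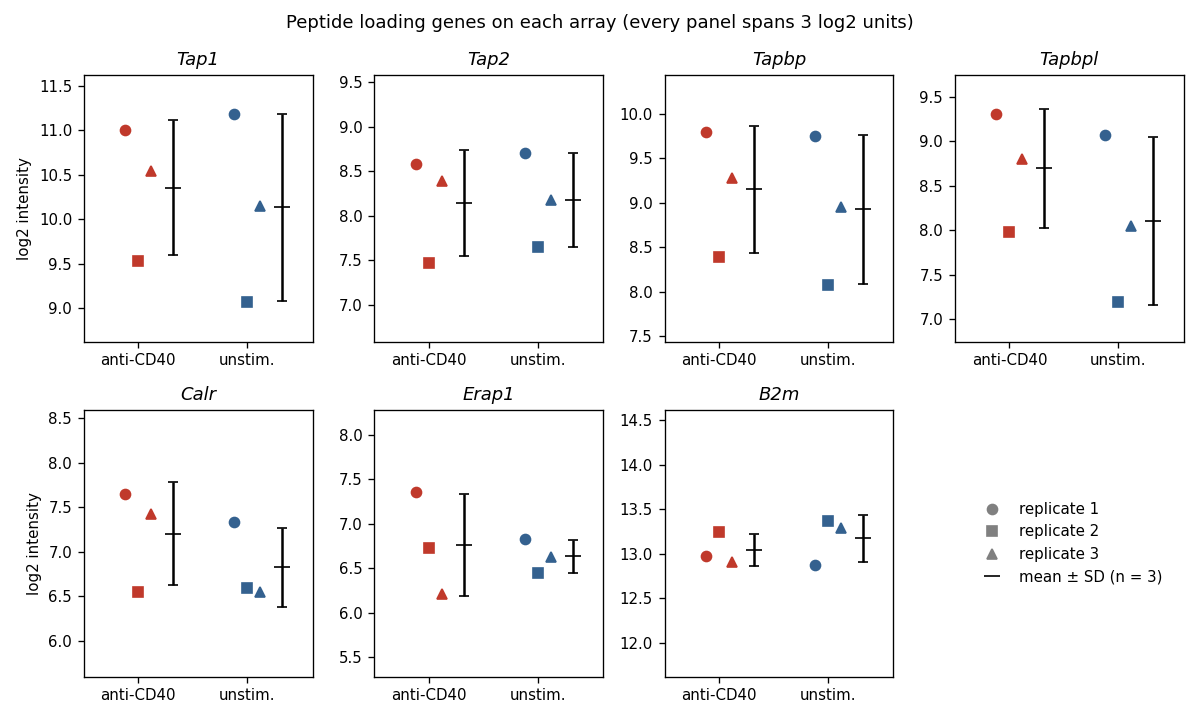
Log2 intensity of the 7 peptide loading genes (vertical axis) in anti-CD40 stimulated cells (red, left) and unstimulated cells (blue, right), with 1 symbol per array, marked by replicate number, and the mean ± SD of each group (n = 3) in black. Every panel spans 3 log2 units. The groups overlap for all 7 genes, and replicate 1 is highest and replicate 2 lowest in both groups for Tap1, Tap2, Tapbp and Tapbpl.

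Tap1 and Tap2 encode the subunits of the peptide transporter of the endoplasmic reticulum. Tap1 (probe set 10444244) had log2 intensities of 11.00, 9.53 and 10.55 in stimulated replicates 1, 2 and 3, against 11.18, 9.07 and 10.15 in unstimulated replicates 1, 2 and 3. The highest and the lowest of the 6 values were both unstimulated, so the stimulated values lay inside the unstimulated range. The group means were 10.36 ± 0.75 and 10.13 ± 1.06 (SD, n = 3 each), and the difference was 0.22 ± 0.58 (SE, 95% interval -1.13 to 1.57). Tap2 (probe set 10444268) had 8.59, 7.47 and 8.39 in stimulated cells, against 8.70, 7.65 and 8.18 in unstimulated cells. Its groups covered nearly the same range and differed by -0.03 ± 0.37 (SE, 95% interval -0.90 to 0.84). As linear folds, the intervals ran from 0.458 to 2.98 for Tap1 and from 0.537 to 1.79 for Tap2.

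Tapbp encodes tapasin, which bridges the transporter and the class I heavy chain and helps to select peptides, and Tapbpl encodes its relative TAPBPR, which edits peptides outside that complex. Tapbp (probe set 10444068) had log2 intensities of 9.80, 8.39 and 9.28 in stimulated cells, against 9.75, 8.08 and 8.95 in unstimulated cells. The means of 9.15 ± 0.71 and 8.93 ± 0.84 (SD, n = 3 each) differed by 0.23 ± 0.49 (SE, 95% interval -0.93 to 1.39), well inside the spread of either group. In the annotation 2 further probe sets list Tapbp together with the ribosomal protein gene Rps3a1, and they were not used. Both were lower in stimulated than in unstimulated cells at each replicate number, with replicate 1 lowest in both groups. Their signal cannot be assigned to Tapbp alone. Tapbpl (probe set 10547976) had 9.30, 7.98 and 8.80 in stimulated cells, against 9.07, 7.19 and 8.05 in unstimulated cells. It had the largest difference of the 7 members in either direction, 0.59 ± 0.52 (SE), or 1.51-fold with a 95% interval of 0.650 to 3.49, and 96.8% of all genes had the same or a lower difference. Even so, stimulated replicate 2 lay below 2 of the 3 unstimulated values, and the unadjusted limma p of Tapbpl was 0.289. Between arrays of the same replicate number, stimulated minus unstimulated was 0.23, 0.79 and 0.75 for Tapbpl (numbers 1, 2 and 3). For Tapbp it was 0.04, 0.31 and 0.33, and every other member had both signs. With the number as a block, Tapbpl had a 95% interval of 0.19 to 0.99 (limma adjusted p 0.278). The labels do not say what a number marks.

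Calr encodes calreticulin, the lectin chaperone that holds newly made heavy chains in the loading complex. Calr (probe set 10580219) had log2 intensities of 7.65, 6.54 and 7.42 in stimulated cells, against 7.34, 6.59 and 6.54 in unstimulated cells. Stimulated replicates 1 and 3 lay above all unstimulated values and stimulated replicate 2 did not. The means were 7.20 ± 0.58 and 6.82 ± 0.45 (SD, n = 3 each), and the difference was 0.38 ± 0.35 (SE, 95% interval -0.43 to 1.19). Erap1 (probe set 10406205), the aminopeptidase that cuts peptides to the length class I binds, had 7.35, 6.73 and 6.21 in stimulated cells, against 6.82, 6.44 and 6.63 in unstimulated cells. The stimulated values had the wider spread, with an SD of 0.57 against 0.19, and held both the highest and the lowest of the 6 values. The difference was 0.13 ± 0.30 (SE, 95% interval -0.57 to 0.83).

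B2m encodes beta-2 microglobulin, the light chain that all class I molecules share. B2m (probe set 10475414) had log2 intensities of 12.97, 13.25 and 12.91 in stimulated cells, against 12.88, 13.36 and 13.29 in unstimulated cells. Over the 6 arrays its range of 0.49 was the smallest of the 7 members, with means of 13.04 ± 0.18 and 13.18 ± 0.26 (SD, n = 3 each). The difference was -0.13 ± 0.20 (SE), or 0.912-fold with a 95% interval of 0.660 to 1.26, the narrowest interval of the 7. Its deposited intensities of 7520 to 10548 were near the highest value of the table, 13701, and whether its probes were saturated was not analysed here. For all members the lowest intensity on any array was 73.9, so none was in the table only through 1 bright group (every probe set of the table reached a geometric mean of 20 in at least 1 group).

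**Figure D2:**
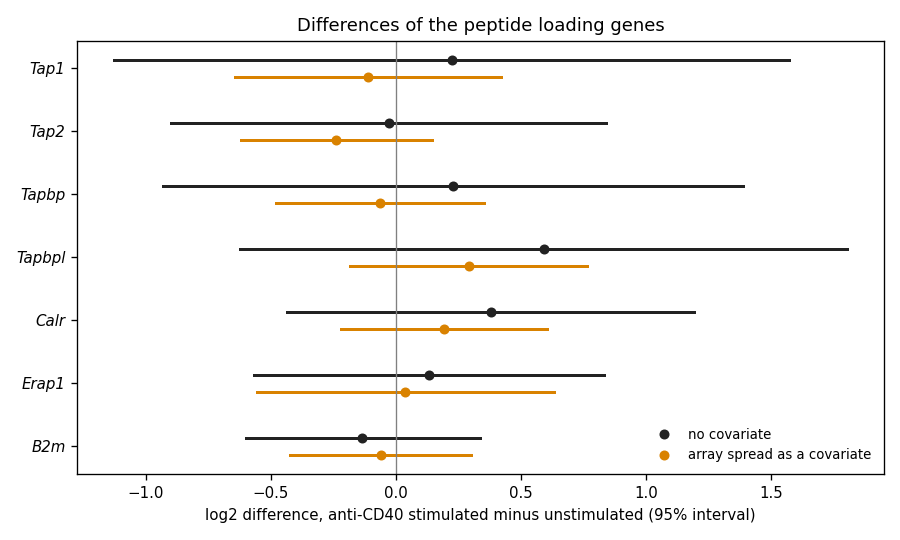
Log2 difference (horizontal axis, anti-CD40 stimulated minus unstimulated) of each peptide loading gene with its 95% interval from limma, without a covariate (black) and with each array's interquartile range as covariate (orange). Every interval holds 0 in both fits, and each of the 7 is narrower with the covariate.

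For each of the 7 loading genes, the range over the replicates of either group was wider than the difference between the group means. Tap1, Tap2, Tapbp and Tapbpl were highest in replicate 1 and lowest in replicate 2 in stimulated and in unstimulated cells alike, and this pattern, seen after the values were known, was held by 13.63% of all genes (1742 of 12780), while 10.35% had replicate 2 highest and replicate 1 lowest in both groups. Replicate 1 minus replicate 2 was 1.47 for Tap1 in stimulated and 2.11 in unstimulated cells on the log2 scale. With its sign kept, this difference was lower for 96.4% and 99.3% of all genes, which counts every gene with replicate 2 higher. Tapbp differed by 1.41 and 1.68 and Tapbpl by 1.33 and 1.88, where the median size of this difference over all genes, in either direction, was 0.38 and 0.36. Calr followed in stimulated cells (1.11) and less in unstimulated cells (0.75), where its replicates 2 and 3 were nearly equal. Erap1 was highest in replicate 1 in both groups but lowest in replicate 3 of the stimulated cells. B2m ran the other way, with replicate 1 lower than replicate 2 by 0.27 in stimulated and 0.49 in unstimulated cells.

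The order of the arrays for the transporter and tapasin genes was that of the interquartile ranges, 2.40, 1.87 and 2.15 in stimulated replicates 1, 2 and 3 and 2.27, 1.86 and 2.02 in unstimulated replicates 1, 2 and 3. The labels do not say whether arrays of the same number shared mice, a sort or a day, and whether the cells of these samples differed was not tested. With the interquartile range as a covariate, chosen after the data were seen, the SE of the difference was 0.23 for Tap1, 0.16 for Tap2, 0.18 for Tapbp and 0.20 for Tapbpl. In that fit Tap1 differed by -0.11 (95% interval -0.64 to 0.42), Tap2 by -0.24 (-0.62 to 0.15), Tapbp by -0.06 (-0.48 to 0.35) and Tapbpl by 0.29 (-0.18 to 0.76). The signs of Tap1 and Tapbp thus turned, and the lowest adjusted p of the 4 genes was 0.813. Calr differed by 0.19, Erap1 by 0.04 and B2m by -0.06 in the same fit, each with an interval that held 0.

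Single arrays also set the sign of 4 members. Without stimulated replicate 1 the difference was -0.10 for Tap1, -0.09 for Tapbp and -0.16 for Erap1, and without unstimulated replicate 2 it was -0.31 for Tap1 and -0.20 for Tapbp. For Tap2 it was 0.31 without stimulated replicate 2 and 0.23 without unstimulated replicate 1. Tapbpl (0.13 to 1.08) and Calr (0.16 to 0.71) stayed positive and B2m (-0.28 to -0.04) stayed negative when any 1 array was left out. In each of these fits 0 members passed, but 0 genes of any kind were called higher or lower, so that count does not set the members apart. The 95% interval lay above 0 for Calr without stimulated replicate 2 (0.006 to 1.42, limma adjusted p 0.893) and for Tapbpl without unstimulated replicate 1 (0.04 to 2.11, limma adjusted p 0.841). With array weights it lay above 0 for Calr at 0.72 (0.19 to 1.25, limma adjusted p 0.164). Leaving out both arrays numbered 1, 2 or 3, chosen after the data were seen, kept Tap1 (0.43, 0.11 and 0.14) and Tapbp (0.32, 0.19 and 0.18) positive. Tap2 and Erap1 did not keep their sign in all of those fits.

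**Figure D3:**
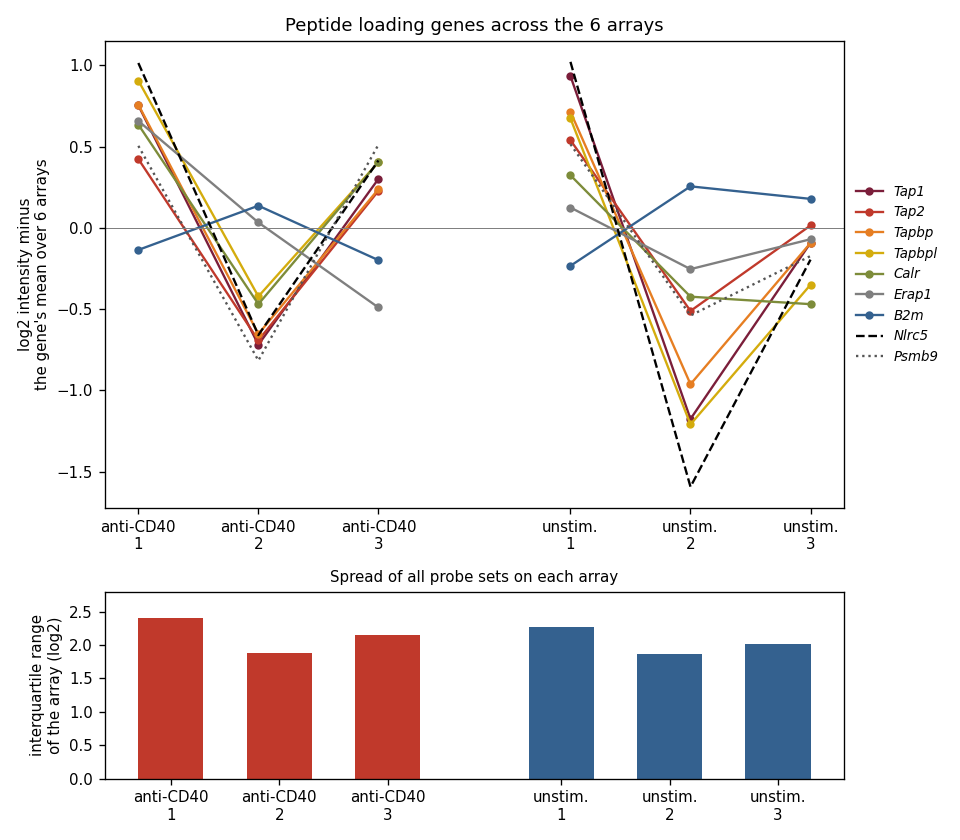
Top, log2 intensity of each peptide loading gene, and of Nlrc5 and Psmb9, minus that gene's mean over the 6 arrays (vertical axis), for anti-CD40 stimulated replicates 1 to 3 (left) and unstimulated replicates 1 to 3 (right), where lines only join the points of 1 gene. Bottom, interquartile range of the log2 intensities of all probe sets on each array (bars). Tap1, Tap2, Tapbp, Tapbpl, Nlrc5 and Psmb9 all have their lowest value in each group in replicate 2, the array with the smallest interquartile range, while B2m has its highest value there.

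Likeness between genes was measured as the root mean square difference of their log2 values over the 6 arrays after each gene was centred on its mean, so that genes of like amplitude and like order score low. Tap1 and Tapbp were the closest pair of members, at 0.13, and only 0.09% of all genes were closer to Tap1 than Tapbp was. Tapbp and Tapbpl (0.20) and Tap1 and Tapbpl (0.21) came next. The transporter subunits Tap1 and Tap2 were less alike, at 0.35, with 4.11% of all genes closer to Tap1 than Tap2 was. B2m and Tap1 were the farthest pair, at 0.94, and 84.1% of all genes were closer to Tap1 than B2m was. These values share 6 arrays and their spread, so they describe the libraries and carry no test.

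By the same measure the 2 genes nearest to each member were Abca7 and Mif4gd for Tap1 (0.034 and 0.066), Ilrun and Gpatch2l for Tap2 (0.060 and 0.061), Il4ra and Copa for Tapbp (0.053 and 0.067) and Med24 and Irf8 for Tapbpl (0.09 and 0.11). They were Med13l and Preb for Calr (0.064 and 0.072), Samhd1 and Ppp1r7 for Erap1 (0.087 and 0.096), and Efcab8 and Hacl1 for B2m (0.016 and 0.027). Irf8 encodes the transcription factor on which cDC1 development depends, and Il4ra the alpha chain of the IL-4 receptor. Irf8 had log2 intensities of 12.38, 10.76 and 11.77 in stimulated cells, against 11.87, 10.20 and 10.93 in unstimulated cells. Its replicate 1 was highest and its replicate 2 lowest in both groups, as for Tapbpl.

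The rest of the class I pathway was counted in 7 lists with 78 measured genes that are not among the members. Of these, 0 passed over all genes and 1 had an unadjusted limma p under 0.05, against 0.0156% and 3.49% of all genes. Differences were positive for 49 of the 78, with a median of 0.06.

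Class I heavy chains had 8 of 18 listed genes measured, with a median difference of 0.13. H2-K1 and H2-D1, the classical chains of this strain, were not analysed here. H2-Q4 (0.46) and H2-M2 (0.39) had the highest differences and Mr1 (-0.26) and H2-Q2 (-0.17) the lowest, and near-identical family members can share probes. For H2-M2 the stimulated values of 9.32, 9.50 and 9.90 all lay above the unstimulated values of 9.01, 9.30 and 9.26, with an adjusted p of 0.99998. H2-M3, which presents formylated peptides, had 8.69, 7.70 and 8.13 in stimulated cells, against 8.34, 7.33 and 7.75 in unstimulated cells, again with replicate 1 highest and replicate 2 lowest.

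Immunoproteasome and PA28 activator genes, which shape the peptides that the transporter receives, were measured for 6 of 6 genes with a median of 0.13. Psmb10 (0.31) and Psme2 (0.29) had the highest and Psme3 (-0.30) and Psmb8 (0.08) the lowest differences. Psmb9, the neighbour that shares its upstream stretch with Tap1, had log2 intensities of 10.77, 9.44 and 10.77 in stimulated cells, against 10.78, 9.72 and 10.09 in unstimulated cells. Its lowest value in each group was replicate 2, as for Tap1 and for 23.57% of all genes. Its distance from Tap1 was 0.34, and 8 other list genes and 3.94% of all genes were closer. The next neighbour, Psmb8, which lies between Tap1 and Tap2, had 10.59, 10.67 and 10.97 in stimulated cells, against 10.74, 10.26 and 11.00 in unstimulated cells, and did not follow that order. Cytosolic and other trimming peptidases (8 of 9 measured, median -0.06) ranged from Npepps (-0.41) and Blmh (-0.29) to Ide (0.01) and Thop1 (0.12).

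Chaperones, glycan editing and disulfide exchange genes of the endoplasmic reticulum, the partners of calreticulin, had 14 of 16 genes measured and a median of 0.08. Uggt1 (0.42), which marks misfolded glycoproteins for another round of folding, and Prkcsh (0.36), a glucosidase subunit, had the highest differences. Ero1b, an oxidase that supplies disulfide bonds, had the lowest at -0.67 ± 0.20 (SE), with values of 5.55, 5.39 and 5.44 in stimulated cells, against 6.06, 6.48 and 5.86 in unstimulated cells. It was the 1 list gene with an unadjusted limma p under 0.05 (0.0118, adjusted 0.99998), and its groups did not overlap. Its relative Ero1a differed by -0.43. Pdia3, the disulfide isomerase joined to tapasin in the loading complex, differed by -0.09, and Canx, the membrane-bound relative of calreticulin, by 0.29.

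Transcription factors of class I genes had 15 of 17 measured and a median of 0.19. Irf1 (0.82 ± 0.45 SE), an activator of class I and transporter genes, and Irf8 (0.64) had the highest differences, and Irf2 (-0.27) and Creb1 (-0.21) the lowest. Nlrc5, the transactivator that works at class I, B2m and transporter promoters, had log2 intensities of 10.51, 8.84 and 9.91 in stimulated cells, against 10.52, 7.90 and 9.30 in unstimulated cells. Its order across the arrays was that of Tap1, and of the 78 list genes it was the closest to Tap1 (0.22), while 0.74% of all genes were closer. The difference of Nlrc5 was 0.51 ± 0.68 (SE, adjusted p 0.99998).

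Cross-presentation genes (15 of 17 measured, median 0.06) ran from Rab43 (-0.48) and Clec9a (-0.26) to Stx4a (0.55) and Vcp (0.75), the ATPase that pulls proteins out of the endoplasmic reticulum membrane. Export and quality control genes (12 of 12 measured, median 0.05) ran from Herpud1 (-0.94) and Syvn1 (-0.31) to H13 (0.27) and Sel1l (0.45). Over all 7 lists, H2-M2 and Ero1b were the only genes whose groups did not overlap, 2.56% of the 78 against 7.14% of all genes.

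**Figure D4:**
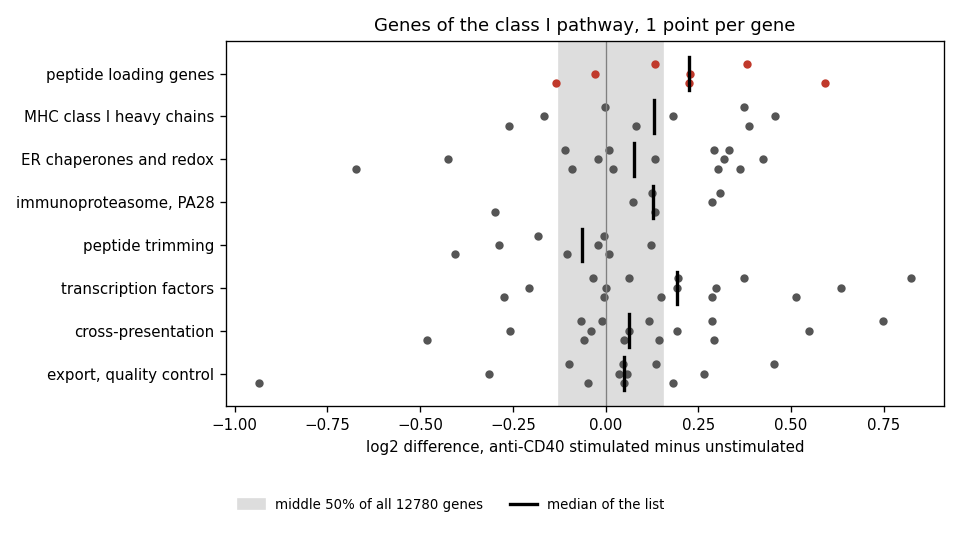
Log2 difference (horizontal axis, anti-CD40 stimulated minus unstimulated) of each gene of the class I pathway, with 1 point per gene, the peptide loading genes in red on top, a black bar at each list's median and the middle 50% of all genes shaded. The medians run from -0.06 to 0.22, and no point passed the test over all genes.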

How the data were processed

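The authors deposited a table of intensities with 17551 probe sets and 6 arrays. It was made with Affymetrix Expression Console and RMA, per the submitters' processing notes, in versions not given in the sources used here. RMA normalises arrays to each other, so a shift shared by most genes may not be seen. The deposited arrays still differed in interquartile range (1.86 to 2.40 on the log2 scale) and in median intensity (51.93 to 56.25). The reason for this was not tested. The values of the table run from 6.97 to 13701, a linear scale, and log2 was taken before any test. Names were taken from the platform annotation, where 13963 probe sets had 1 symbol, 970 several and 2618 none. Only those with 1 symbol were named, and the brightest probe set of each gene was used, which gave 12780 genes. Each of the 7 members had 1 such probe set.

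The comparison of stimulated minus unstimulated arrays used limma 3.58.1 (R 4.3.3) with two-sided tests and no covariate, running lmFit and then eBayes at their defaults, with Benjamini-Hochberg adjustment over all genes and a threshold of 0.05. The procedure was tested on simulated data with independent noise. Those data lack the deviations that these arrays share, so they do not give the error rate here. The number of arrays limits the precision. The rule for the members names symbols and uses no measured value, but earlier results of these data were known when members and lists were chosen. Lists are therefore described and not tested. Named beside the members are the 2 highest and 2 lowest genes of each list and the 2 genes nearest to each member. Canx, Pdia3, Nlrc5, Psmb9, H2-M3 and the array pattern were singled out after their values were seen. Python 3.11.15 with matplotlib 3.10.9 drew the figures.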

Additional observations from a re-analysis of the deposited data

How the results depend on the processing

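Under 17 alternatives 0 of 119 member values passed, 4 had a 95% interval without 0 (2 each for Calr and Tapbpl), and 14 had the other sign, all in Tap1, Tap2, Tapbp or Erap1. When 1 array was left out, the log2 differences ran from -0.31 to 0.75 for Tap1, from -0.29 to 0.31 for Tap2, from -0.20 to 0.64 for Tapbp and from -0.16 to 0.41 for Erap1, and 0 genes were called higher or lower. Array weights gave 0.11 for Tap2, -0.16 for Erap1, 0.72 for Calr and -0.29 for B2m, with 28 genes higher and 18 lower over all genes. The main counts were 2 higher and 0 lower. Quantile normalisation once more gave 5 higher and 1 lower, and centring arrays on medians 1 lower. Chosen after seeing the data, each array's interquartile range as covariate gave -0.110 for Tap1 and -0.063 for Tapbp, with 11 genes higher and 4 lower. Leaving out both arrays of a number, also chosen after seeing the data, gave 0 higher in each case. Without those numbered 1, Tap2 was at 0.016 and Erap1 at -0.066, and without those numbered 2, Tap2 was at 0.049. Tap1 and Tapbp stayed positive in each case. The median of the members ran from -0.10 to 0.64 over all alternatives. The trend and robust variance model, the filter on dim genes and averaged probe sets turned no sign among the members.

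Stimulated and unstimulated samples share replicate numbers. Deviations from the group means correlated across genes at 0.73, 0.59 and 0.06 for numbers 1, 2 and 3. Each stimulated replicate correlated best with its own number, while unstimulated replicate 3 correlated best with stimulated replicate 2 (0.19). The labels do not say what a number marks, so it was used as a block only in an alternative fit. That block lowered the SE from 0.58 to 0.18 for Tap1, from 0.37 to 0.16 for Tap2 and from 0.49 to 0.15 for Tapbp. With the number as a block, 30 genes were higher and 8 lower, and 0 members passed (lowest limma adjusted p 0.278, for Tapbpl at 0.59 with a 95% interval of 0.19 to 0.99). Signal over background was not analysed here, and the cause of the changes of sign was not tested.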
